A study of Mus musculus with 12 samples.

Results

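Mural cells wrap the blood vessels of the atrium. Pericytes sit on capillaries and smooth muscle cells form the wall of arteries and larger veins, and the set described here is 10 genes in common use as their markers. The genes were taken by symbol from a table of 40690 gene identifiers, and all 10 were present with 1 row each. The 5 pericyte markers were Cspg4 (the NG2 proteoglycan), Pdgfrb (a receptor for platelet-derived growth factor), Rgs5 (a brake on G protein signalling), Mcam (the adhesion molecule CD146) and Vtn (the matrix protein vitronectin). The 5 smooth muscle markers were Acta2 (smooth muscle actin), Myh11 (smooth muscle myosin heavy chain), Tagln (transgelin, an actin-binding protein), Cnn1 (calponin) and Myl9 (a regulatory myosin light chain).

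RNA of the right atrium of adult mice was sequenced in 12 libraries, 6 from iNICD mice and 6 from littermates with the genotype label Control. Mice of both groups received doxycycline chow for 3 weeks from an age of 2 to 3 months, and atria were taken without an interval off the chow. iNICD stands in the labels for the genotype in which Notch signalling was switched on, and the sources used here do not name the promoter that drives it, the strain or the sex. The deposited values are read counts scaled to a common library size (CPM), and libraries held 12015650 to 22716190 reads. Notch1 was at 192 to 293 CPM in the controls and at 3064 to 5358 CPM in the iNICD libraries, so each library carried the level of its label. The sources do not say whether each sample came from a separate animal. The p-values therefore cover the spread between these samples, which may in part be technical. Both groups held libraries with high and with low levels of Xist, an RNA made in female cells.

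Pericytes are recruited to vessels by platelet-derived growth factor from the endothelium, which acts on Pdgfrb. Notch receptors, above all Notch3, and the ligand Jag1 take part in the maturation of vascular smooth muscle. The contractile genes Acta2, Myh11, Tagln and Cnn1 are classical targets of serum response factor (SRF) with its cofactor myocardin. SRF acts at CArG boxes, while the Notch effector RBPJ binds a short core motif. Some of the 10 genes are not limited to mural cells. Mcam is also made by endothelium, Cspg4 by glial precursors, Acta2 by activated fibroblasts and Vtn by the liver.

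The 250 bases before the RefSeq start (GRCm38.p6) were searched in the 7 of 10 genes that had an entry, to show which of these motifs lie there. Tagln, Myh11 and Pdgfrb had none. The promoter of Cspg4, the gene that changed, and that of Myl9, the one gene with a strict CArG box, are shown as far as the first annotated exon base, with CArG boxes in capitals. For Acta2 only the sites are shown, since an annotated first exon covers them, and the RBPJ core TGGGAA is in capitals as well.
Cspg4, chr9:56864854-56865032, plus strand: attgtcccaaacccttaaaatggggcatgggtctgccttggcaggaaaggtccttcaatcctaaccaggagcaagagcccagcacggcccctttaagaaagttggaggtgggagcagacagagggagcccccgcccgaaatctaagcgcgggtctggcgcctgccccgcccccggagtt
Myl9, chr2:156775214-156775419, plus strand: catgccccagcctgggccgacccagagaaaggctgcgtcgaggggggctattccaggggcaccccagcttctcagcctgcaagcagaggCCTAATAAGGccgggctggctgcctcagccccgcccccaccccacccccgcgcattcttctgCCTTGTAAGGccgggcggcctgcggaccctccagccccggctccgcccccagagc
Acta2, chr19:34255442-34255463, minus strand: tgaggtCCCTATATGGttgtgt
Acta2, chr19:34255389-34255413, minus strand: tttgctCCTTGTTTGGGAAgcgagt

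Both strands were searched. Of 32851 promoters in the table, 1.47% held a strict CArG box, 8.59% held one with at most 1 G or C in its middle, 21.6% held the RBPJ core TGGGAA or its complement and 66.2% held an E-box (CANNTG). Myl9 held a strict box and a second one with 1 G, and Acta2 held 2 boxes with 1 G or C. The lower box of Acta2 overlapped the RBPJ core by its last bases, and Vtn held the same core. The window of Cspg4 held none of these motifs, and that of Rgs5 held none either. Cnn1 and Mcam held 1 E-box each, Vtn held 2 and Acta2 held 3. The window of Cnn1 held no CArG box of either kind. These matches describe letters in a short window and not binding.

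Of the 10 markers, Cspg4 was higher in iNICD atria and the other 9 did not pass the test. The test was limma on log2(CPM + 0.5) over 14336 genes, with p-values adjusted by Benjamini-Hochberg over all of them and a threshold of 0.05, and all 10 markers were high enough to be tested. In the background of all tested genes, 6.71% were called, 4.87% higher and 1.84% lower, so the count of 1 in 10 was near that share and the result rests on Cspg4 alone. The split of all calls moved from 698 higher and 264 lower to 616 and 384 under median-of-ratios scaling and to 602 and 407 under quantile normalization. No marker was called lower by limma, edgeR or DESeq2, and at an unadjusted p under 0.05 limma put 1 lower (Myl9), edgeR 2 and DESeq2 3. Of the 10 markers 4 had a log2 fold change above 0, against 61.3% of all tested genes, and the median was -0.07 against 0.05. In atrial tissue as a whole, fewer cells of a type and less RNA per cell cannot be told apart.

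Cspg4 (ENSMUSG00000032911) lies on chromosome 9, 56865033 to 56899870 (GRCm38). It encodes a large proteoglycan on the surface of pericytes that binds matrix and growth factors. Its level was 65.6, 69.9, 71.0, 105, 54.9 and 51.7 CPM in the controls, numbered 1 to 6, against 284, 279, 194, 298, 206 and 248.8 CPM in the iNICD libraries in the same order. All 6 iNICD libraries were above all 6 controls, and the lowest iNICD library was 1.84 times the highest control. The means were 69.8 ± 19.2 CPM in the control atria against 251 ± 43.4 in the iNICD atria (mean ± SD of 6 libraries in each group). The log2 fold change was 1.86 (SE 0.16, 95% interval 1.52 to 2.21, limma adjusted p = 5.6e-06), which is 3.64-fold on the log2(CPM + 0.5) scale. The exact two-sided permutation test gave p = 0.0022, the smallest that 6 against 6 libraries allow. Among all tested genes Cspg4 ranked 46 by log2 fold change and 34 by p. The values rest on 803 to 1654 reads a library in controls and 2427 to 4619 in iNICD. Of all tested genes, 4.59% had groups without overlap, 3.46% with iNICD higher and 1.13% with iNICD lower, and of the 10 markers 1 had, Cspg4.

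**Figure D1:**
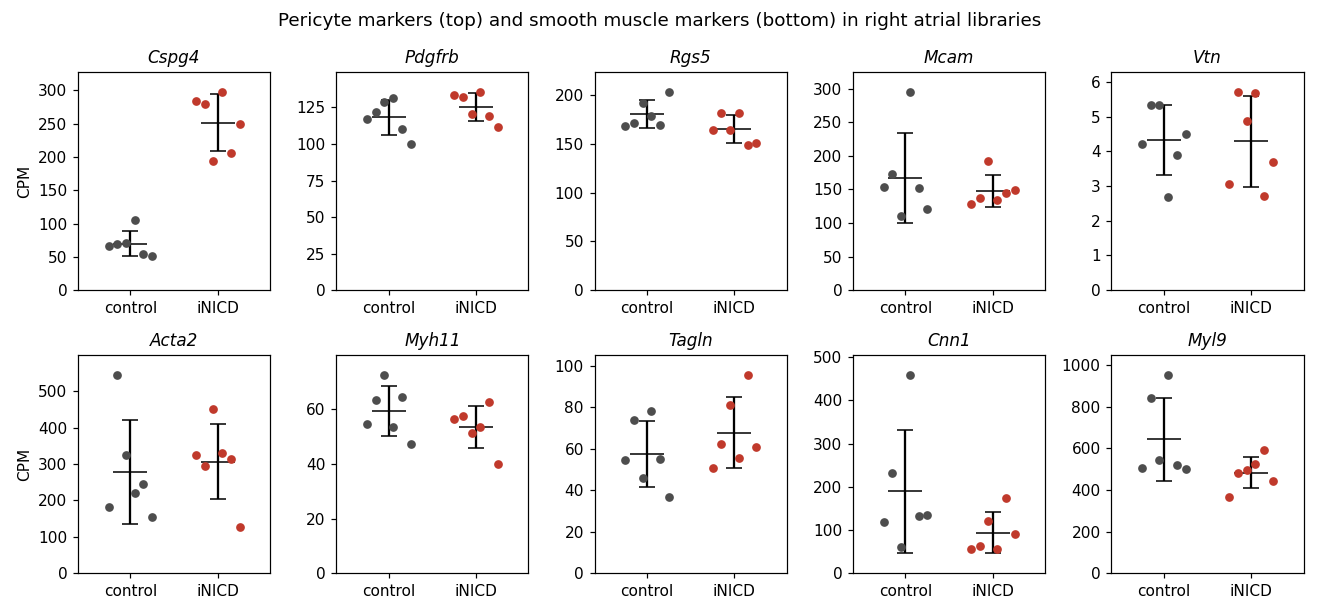
Level of each marker (y axis, CPM from 0) in the 6 control and 6 iNICD libraries (points), with the group mean and SD as bars. The Cspg4 points of iNICD, 194 to 298 CPM, all lie above those of controls, 51.7 to 105 CPM, and in the other 9 panels the groups overlap.

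Cspg4 levels were also listed by the level of Xist. No iNICD library overlapped the controls, so any split of the libraries shows the rise on both sides. The split is therefore a description and no further support. Xist was at or above 464 CPM in 7 libraries and at or below 13.5 CPM in 5. Among the libraries with high Xist, Cspg4 was at 54.9 to 71.0 CPM in 4 controls and at 194 to 284 CPM in 3 iNICD libraries, a difference of mean log2 values of 1.93. Among those with low Xist it was at 51.7 to 105 CPM in 2 controls and at 206 to 298 CPM in 3 iNICD libraries, a difference of 1.74. The neighbouring tested genes on either side were not called. Lingo1, 68565 bases away, had a log2 fold change of -0.77 (SE 0.28, limma adjusted p = 0.13) and Snx33, 17323 bases away, one of 0.25 (SE 0.07, limma adjusted p = 0.063), and neither overlaps Cspg4 in the annotation.

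Pdgfrb (ENSMUSG00000024620), the receptor through which pericytes are recruited, stayed in a narrow range. It was at 117, 122, 129, 131, 110.5 and 99.9 CPM in the controls, against 133, 132, 120.2, 136, 119 and 112 CPM in the iNICD libraries. The groups overlapped over most of their range. The log2 fold change was 0.09 (SE 0.08, 95% interval -0.08 to 0.26, limma adjusted p = 0.63), so the interval runs from 0.944-fold to 1.19-fold.

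Rgs5 (ENSMUSG00000026678; chromosome 1, 169655501 to 169695813) is a regulator of G protein signalling enriched in pericytes. Its levels were 168, 171, 192, 179, 169 and 203 CPM in controls and 164, 182, 164, 182, 149 and 151 CPM in iNICD. The groups overlapped, but 4 of 6 iNICD libraries were below all controls, with iNICD 5 and iNICD 6 the lowest. Between the groups the log2 fold change was -0.13 (SE 0.08, 95% interval -0.29 to 0.03, limma adjusted p = 0.41), with an exact permutation p of 0.093.

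Mcam (ENSMUSG00000032135; chromosome 9, 44134469 to 44142727) is an adhesion molecule of pericytes, smooth muscle and endothelium. It was at 153, 173, 109.8, 295, 153 and 121 CPM in the controls, against 128, 138, 192, 134, 144 and 149.8 CPM in the iNICD libraries. Control 4 stood far above the other controls, and iNICD 3 above the other iNICD libraries. For Mcam the fitted log2 fold change was -0.12 (SE 0.20, limma adjusted p = 0.82), and it was 0.06 (SE 0.12) without control 4, so 1 library set its sign. The antisense gene Gm10687 overlaps exons of Mcam and was at 4.03 CPM on average in both groups.

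Vtn (ENSMUSG00000017344; chromosome 11, 78499091 to 78502324), a matrix protein made by brain pericytes and by the liver, was the lowest marker. It was at 2.68 to 5.35 CPM in controls, with a median of 4.37 CPM, and at 2.72 to 5.72 CPM in iNICD, with a median of 4.28 CPM. These levels rest on 38 to 96 reads a library. The groups covered nearly the same range, and the log2 fold change was -0.03 (SE 0.20, limma adjusted p = 0.96). The hepatocyte markers summed to 5.41 to 13.1 CPM in the control atria against 4.90 to 9.24 in the iNICD atria over 8 genes, 6 of them below the filter and Serpina1a at 0 in all 12 libraries. Neither of the 2 tested ones was called by limma, edgeR or DESeq2. At an unadjusted p under 0.05 limma put 1 higher (Ttr, log2 fold change 0.37) and 1 lower (Tat, -0.59). In 1 of 23 other settings 1 was called lower.

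The ratio of Cspg4 to each of the other pericyte markers in the same library was higher in iNICD than in control. The ratio of Cspg4 to Pdgfrb in CPM was 0.497 to 0.803 in controls and 1.61 to 2.23 in iNICD, and the ratio to Rgs5 was 0.254 to 0.589 in controls and 1.18 to 1.73 in iNICD. Neither ratio overlapped between the groups. The difference between the log2 fold changes was 1.78 for Cspg4 against Pdgfrb and 1.99 against Rgs5, each with an exact two-sided permutation p of 0.0022. Against Mcam it was 1.98 and against Vtn 1.89, with the same p and no overlap. The smooth muscle markers Myh11 (2.01), Tagln (1.62), Cnn1 (2.71) and Myl9 (2.24) gave the same exact p, and Acta2 (1.69), whose ratio overlapped between groups, gave an exact permutation p of 0.0043. These 9 contrasts were chosen after the level of Cspg4 was seen, and all share its values. They restate its rise and are not separate support for it.

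**Figure D2:**
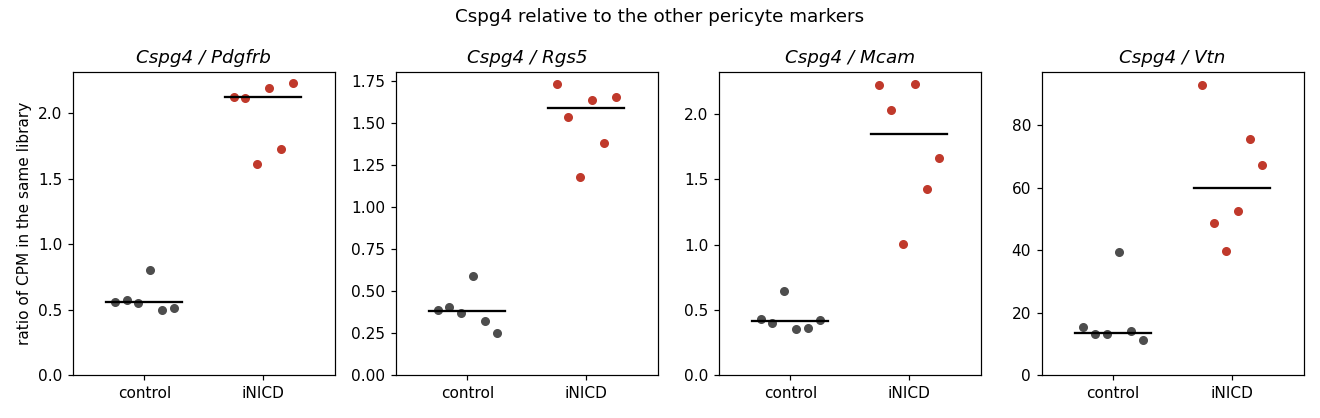
Ratio of Cspg4 CPM to the CPM of Pdgfrb, Rgs5, Mcam and Vtn in the same library (y axis, from 0) for 6 control and 6 iNICD libraries, with a line at the group median. In each panel the iNICD points lie above all control points, with a median ratio to Pdgfrb of 2.12 against 0.556.

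The 5 smooth muscle markers did not pass the test, with 2 positive and 3 negative log2 fold changes. Their spread among controls was wide for Cnn1, with a coefficient of variation of 75.2%, and for Acta2 with 51.1%, and narrower for Myh11 with 15.4%. Among the pericyte markers it was 39.9% for Mcam, 27.5% for Cspg4 and 7.93% for Rgs5.

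Acta2 (ENSMUSG00000035783; chromosome 19, 34241090 to 34255590) encodes the actin of vascular smooth muscle. It was at 181, 544, 324, 221, 246 and 156 CPM in the controls, against 324, 294, 450.0, 332, 314 and 127 CPM in the iNICD libraries. Control 2 was the highest library and iNICD 6 the lowest, and 5 of 6 iNICD libraries lay inside the range of the controls. The difference on the log2 scale was 0.18 (SE 0.34, 95% interval -0.57 to 0.92, limma adjusted p = 0.85), an interval from 0.674-fold to 1.90-fold. The close paralog Actc1, the cardiac actin of the myocytes, was at 8168 ± 2808 CPM in the control atria against 5892 ± 1217 in the iNICD atria (mean ± SD of 6 libraries), and the sources used here do not say how reads shared by such copies were counted. Actc1 did not pass the test (log2 fold change -0.44, limma adjusted p = 0.23).

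Myh11 (ENSMUSG00000018830; chromosome 16, 14194535 to 14291372) encodes the myosin of mature smooth muscle. It was at 54.4, 63.4, 72.4, 53.4, 64.4 and 47.3 CPM in the controls, against 56.2, 57.3, 51.4, 53.4, 62.7 and 39.8 CPM in the iNICD libraries. The 5 iNICD libraries other than iNICD 6 lay inside the range of the controls. Its log2 fold change was -0.15 (SE 0.12, 95% interval -0.39 to 0.10, limma adjusted p = 0.56).

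Tagln (ENSMUSG00000032085; chromosome 9, 45929619 to 45936058) is an early marker of the smooth muscle lineage. Levels were 54.6, 74.1, 46.0, 78.0, 54.9 and 36.8 CPM in controls and 50.8, 62.4, 81.1, 55.6, 95.5 and 60.8 CPM in iNICD. The highest library was iNICD 5 and the lowest control 6. Its log2 fold change was 0.25 (SE 0.19, 95% interval -0.17 to 0.66, limma adjusted p = 0.56). Its exons overlap those of Pcsk7 on the opposite strand, which was at 45.7 CPM in the control atria against 46.4 in the iNICD atria. The genes share only the stretch from 45929619 to 45929726, and reads there cannot be told apart without strand.

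Cnn1 (ENSMUSG00000001349; chromosome 9, 22099216 to 22109630), calponin, binds actin and slows the myosin ATPase. It was at 119, 232, 60.9, 458, 133 and 134 CPM in the controls, against 57.3, 63.6, 121, 57.0, 175 and 91.4 CPM in the iNICD libraries. Control 4 was 7.53 times control 3, the widest range within a group among the 10 markers. The means were 189.6 ± 143 and 94.3 ± 46.9 CPM (mean ± SD of 6 libraries in each group). On the log2 scale the difference was -0.85 (SE 0.46, 95% interval -1.86 to 0.17, limma adjusted p = 0.37, exact permutation p = 0.11). It was -0.53 without control 4 and -1.49 without the 3 libraries rich in Gm42418 described below, where the limma adjusted p was 0.072.

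Myl9 (ENSMUSG00000067818; chromosome 2, 156775420 to 156781658) is the light chain whose phosphorylation starts smooth muscle contraction. It was at 506, 842, 544, 952, 519 and 499.6 CPM in the controls, against 366, 482, 495, 524, 590.1 and 445 CPM in the iNICD libraries. Controls 2 and 4 were above all other libraries, and 4 of 6 iNICD libraries were below all controls. The log2 fold change was -0.38 (SE 0.17, 95% interval -0.74 to -0.01), which did not pass the adjusted test (limma adjusted p = 0.25, exact permutation p = 0.089). Without control 4 it was -0.25 (SE 0.14). Its close paralogs Myl12a (0.08, limma adjusted p = 0.79) and Myl12b (-0.19, limma adjusted p = 0.43) did not pass either.

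**Figure D3:**
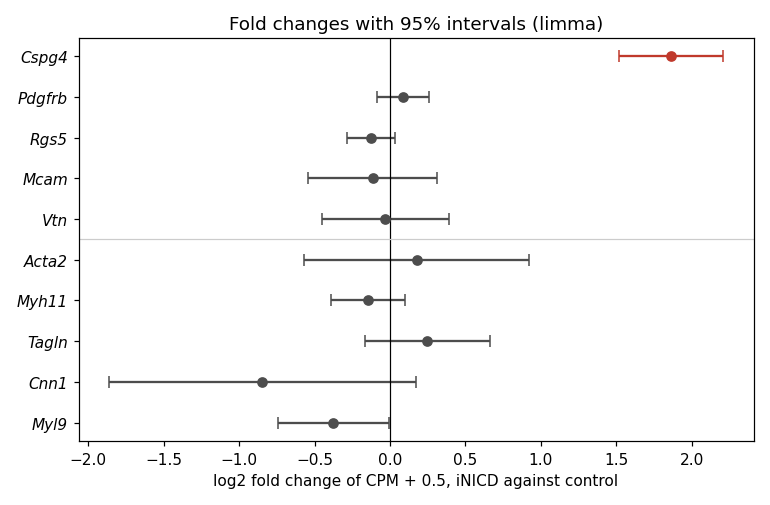
log2 fold change of CPM + 0.5 in iNICD against control (x axis) with its 95% interval for the 5 pericyte markers (above the grey line) and the 5 smooth muscle markers (below it), from the limma fit on 12 libraries. Cspg4, in red, is the one marker past the threshold at 1.86, and Cnn1 has the widest interval, from -1.86 to 0.17.

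Control 4 was the highest control for Cspg4, Pdgfrb, Mcam, Cnn1, Myl9 and Tagln. It was the lowest control for Vtn. Other genes set control 4 apart too: Hbegf, a growth factor for smooth muscle, was at 152 CPM there and at no more than 16.5 CPM in any other control, and Actc1 was at 13483 CPM against 5955 to 8803 CPM. The smooth muscle markers summed to 1763 CPM in control 4 and 1755 CPM in control 2, and to 874 to 1047 CPM in the other controls, against 764 to 1238 CPM in iNICD.

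**Figure D4:**
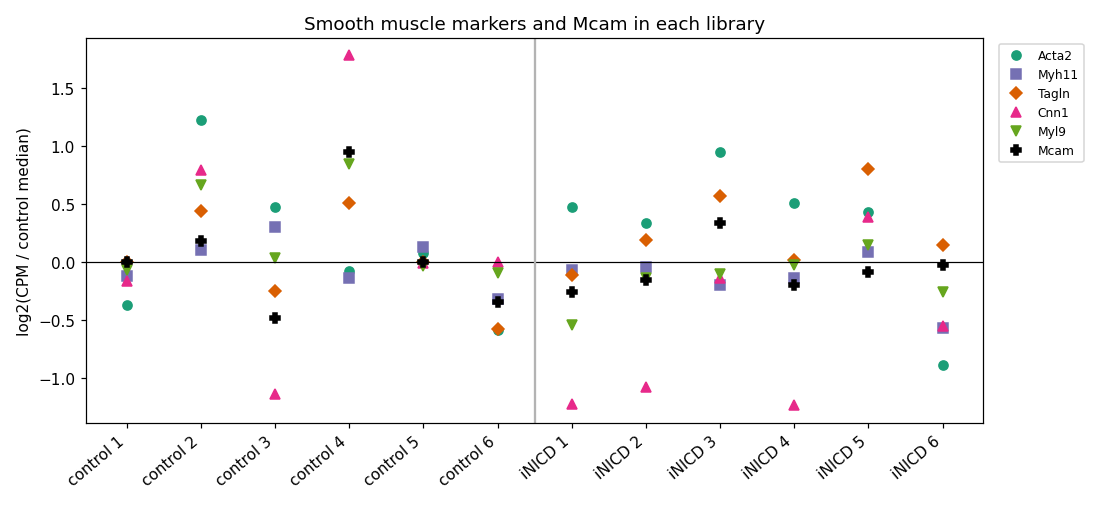
Level of the 5 smooth muscle markers and Mcam in each of the 12 libraries, as log2 of CPM over the median of the controls (y axis), 1 symbol per gene. Cnn1, Mcam, Myl9 and Tagln were highest among controls in control 4, and Acta2 in control 2, at 544 CPM.

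Per kilobase of annotated exon, which allows levels to be compared between genes, Myl9 was highest in controls at 554 ± 172 CPM per kilobase, followed by Acta2 at 127 ± 64.9. Next came Cnn1 at 69.3 ± 52.1, Mcam at 49.97 ± 19.9 and Rgs5 at 39.7 ± 3.15 CPM per kilobase. Tagln was at 28.9 ± 8.03, Pdgfrb at 21.6 ± 2.16, Myh11 at 7.79 ± 1.20, Cspg4 at 5.85 ± 1.61 and Vtn at 2.13 ± 0.492 CPM per kilobase (mean ± SD of 6 libraries). In this order Myl9 stood above Acta2, Pdgfrb above Myh11 and Cspg4 above Vtn by more than the summed SD of the pair, and the remaining neighbours differed by less. In iNICD atria Cspg4 was at 21.1 ± 3.63 CPM per kilobase, next to Pdgfrb at 22.9 ± 1.77 and above Myh11 at 7.04 ± 1.02. Exon lengths came from GENCODE M21 and may differ from the annotation used for counting.

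Other genes of pericytes were mostly short of the threshold, in a list of 22 of which all were tested. Art3, an ADP-ribosyltransferase family member, rose and Tbx2, a T-box repressor, fell, and 20 did not pass. Whole atrial tissue was measured, so the cells in which Art3 and Tbx2 changed are not known. Art3 went from 246 to 314 CPM in controls to 328 to 575 CPM in iNICD without overlap (log2 fold change 0.56, SE 0.12, limma adjusted p = 0.0083). Tbx2 was at 10.1 to 14.3 CPM in the control atria against 7.09 to 10.7 in the iNICD atria (log2 fold change -0.54, SE 0.12, limma adjusted p = 0.010). The list median was -0.03, against 0.05 over all tested genes. The potassium channel genes Kcnj8 (-0.10) and Abcc9 (0.08), which form the channel typical of pericytes, had limma adjusted p = 0.81 each. Notch3, the Notch receptor of mural cells, was at 93.9 ± 22.1 CPM in the control atria against 88.0 ± 14.9 in the iNICD atria (mean ± SD of 6 libraries; log2 fold change -0.08, limma adjusted p = 0.85).

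A list of 22 genes tied to signalling between endothelium and mural cells held ligands, receptors and the repressor gene Heyl. Of these, 2 rose and none fell by limma or edgeR, and 1 fell by DESeq2, with a median log2 fold change of 0.00. At an unadjusted p under 0.05, limma put 0 lower. Heyl, a Notch-responsive repressor found in mural cells, was at 19.5 to 27.8 CPM in the control atria and at 71.0 to 93.8 in the iNICD atria (log2 fold change 1.73, SE 0.10, limma adjusted p = 3.4e-08). Jag1 was at 32.4 to 39.6 CPM in the control atria and at 48.6 to 63.7 in the iNICD atria (log2 fold change 0.64, SE 0.08, limma adjusted p = 0.00012). Both were without overlap between the groups, and the cells in which they rose are not known. The pericyte recruitment factor Pdgfb was at 21.5 to 37.1 CPM in the control atria against 16.2 to 30.7 in the iNICD atria (log2 fold change -0.25, limma adjusted p = 0.41).

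In a list of 30 further smooth muscle genes, 28 were tested, of which 2 rose, 1 fell and 25 did not pass. The median log2 fold change was -0.11. The background for this and the other lists was 6.71% of all tested genes called, 4.87% higher and 1.84% lower. Gucy1b3, the beta subunit of the nitric oxide receptor guanylate cyclase, was at 63.0 to 82.3 CPM in the control atria against 163 to 257 in the iNICD atria (log2 fold change 1.49, SE 0.12, limma adjusted p = 9.6e-07). Its alpha subunit Gucy1a3 had groups without overlap but did not pass the test (log2 fold change 0.48, SE 0.18, limma adjusted p = 0.14). Itga7, a laminin-binding integrin subunit of striated and smooth muscle, rose from 221 to 251 CPM in controls to 347 to 456 CPM in iNICD (log2 fold change 0.78, SE 0.07, limma adjusted p = 6.2e-06). Tpm2, beta-tropomyosin, fell from 179.8 to 284 CPM in controls to 121 to 159 CPM in iNICD (log2 fold change -0.65, SE 0.11, limma adjusted p = 0.0014). All 3 were without overlap, as were 4.59% of all tested genes. The cells in which they changed are not known.

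Of 14 tested regulators of smooth muscle genes, Hdac4 rose and Srf fell, and 12 did not pass, with a median log2 fold change of 0.07. Srf, whose protein binds CArG boxes, was at 201 to 365 CPM in the control atria against 152 to 186 in the iNICD atria (log2 fold change -0.65, SE 0.11, limma adjusted p = 0.0024). Myocd, the gene of its cofactor myocardin, was at 81.9 ± 13.9 CPM in the control atria and 106 ± 15.7 in the iNICD atria (mean ± SD of 6 libraries). Its log2 fold change was 0.38 (SE 0.12, limma adjusted p = 0.075). The cells that made Srf and Myocd were not separated here. Hdac4, a repressor of muscle genes, had a log2 fold change of 0.29 (SE 0.08, limma adjusted p = 0.039), and its call survived 4 of 12 omissions of a single library.

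**Figure D5:**
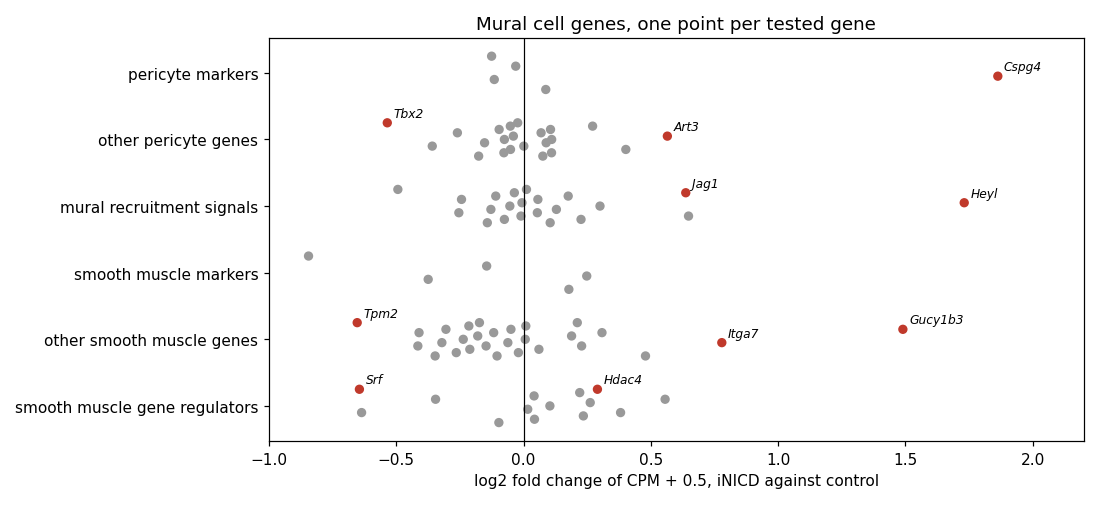
log2 fold change of CPM + 0.5 in iNICD against control (x axis) for each tested gene of 6 lists (rows, points spread vertically for legibility). Named red points passed the limma threshold, and Cspg4 (1.86), Heyl (1.73) and Gucy1b3 (1.49) lie farthest to the right.

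Paralogs of the markers, whose reads could be shared with them, were followed in a list of 18, of which 16 were tested. Myh14, a nonmuscle myosin heavy chain, rose from 112 ± 6.71 to 135 ± 9.48 CPM (mean ± SD of 6 libraries; log2 fold change 0.27, limma adjusted p = 0.023), and 15 did not pass. The Myh14 call survived 9 of 12 omissions of a single library and was lost without control 5, iNICD 1 or iNICD 2. The nonmuscle myosins Myh9 and Myh10, of the same family as Myh11, were at 282 and 98.8 CPM on average in the control atria against 269 and 98.1 in the iNICD atria. Cnn2 was at 75.5 CPM against 64.1, and Tagln2 at 78.4 CPM against 67.7. The median log2 fold change of the paralogs was -0.16, against 0.05 over all tested genes.

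Markers of other cell types that could carry these genes are given by list. The 10 endothelial markers summed to 1579 to 2134 CPM in the control atria against 1553 to 2236 in the iNICD atria, and 1 of them, the junction gene Esam, rose (log2 fold change 0.93, SE 0.14, limma adjusted p = 0.00054). None of them was called lower by limma or edgeR and 1 was by DESeq2, and at an unadjusted p under 0.05 limma put 1 lower. The 10 fibroblast markers summed to 3273 to 4144 CPM in the control atria against 3282 to 5713 in the iNICD atria, with Tcf21 called higher (0.25, limma adjusted p = 0.048), a call that survived 1 of 12 omissions of a single library and that edgeR did not make. No fibroblast marker was called lower by limma, with 1 lower at an unadjusted p under 0.05, whereas edgeR and DESeq2 each called 1 lower. None of 7 tested markers of activated fibroblasts was called, with 0 higher and 1 lower at an unadjusted p under 0.05 by limma, and 0 calls by edgeR or DESeq2.

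Schwann cells and glia, which also make Cspg4, were followed by 8 markers that summed to 59.4 to 76.1 CPM in the control atria against 54.2 to 82.8 in the iNICD atria. None of the 7 tested was called by limma, edgeR or DESeq2, and 0 had an unadjusted p under 0.05. Their median log2 fold change was -0.24, and the lineage factor Sox10 was at 2.33 to 4.71 CPM in the control atria against 2.29 to 4.59 in the iNICD atria. The 9 cardiomyocyte markers summed to 159088 to 165101 CPM in the control atria against 137167 to 154639 in the iNICD atria, without overlap, with Mybpc3 higher (0.61, limma adjusted p = 0.0047) and Myl7 lower (-1.17). Ttn, with means of 90177 CPM in control and 79175 in iNICD, and Myh6, with 42302 and 38528, made up most of this sum. Neither was called (limma adjusted p = 0.12 and 0.51). For Ttn the groups did not overlap, at 85959 to 93766 CPM in controls and 74508 to 85308 in iNICD (exact permutation p = 0.0022). Of all tested genes, 1.13% were without overlap with iNICD lower. Of these 9 markers 7 had a log2 fold change below 0, and 5 were lower at an unadjusted p under 0.05 by limma. The number called lower was 1 by limma, 3 by edgeR and 4 by DESeq2, and ran from 1 to 4 over 23 other settings. The 6 macrophage markers summed to 354 to 449 CPM in the control atria against 423 to 612 in the iNICD atria, with Adgre1 (0.78), Csf1r (0.44) and C1qa (0.47) called higher by limma, against 2 calls by edgeR and 3 by DESeq2. The call of Csf1r survived 6 of 12 omissions of a single library and that of C1qa 4 of 12. Epicardial markers summed to 229 to 331 CPM in the control atria against 161 to 357 in the iNICD atria over 7 genes, and adipocyte markers to 38.6 to 179 CPM and 23.2 to 225 CPM over 6 genes, with no call in either list by the 3 tools and 0 at an unadjusted p under 0.05. Lung and airway markers summed to at most 3.00 CPM in any library, and none of 6 reached the filter. The part of the changes in myocyte and macrophage markers in the Cspg4 result was not tested.

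The RNA Gm42418 was at 20234 to 30814 CPM in control 3, iNICD 3 and iNICD 5 and at 119 to 4790 CPM in the other libraries. Without these 3 libraries the log2 fold change of Cspg4 was 2.03 (SE 0.18, limma adjusted p = 0.00011), and that of Tagln was -0.01 (SE 0.19) in place of 0.25.

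Genes whose level followed the smooth muscle markers from library to library were sought among tested genes, after the mean of each group was removed, over 12 libraries. Those most like the mean of the 5 smooth muscle markers were Tgfb1i1 (Pearson's r = 0.90), Tmem158 (0.89), Sec23b (0.88), P4ha2 (0.88) and Slc25a39 (0.88). Those most like the mean of the 5 pericyte markers were Cldn5 (0.95), a tight junction gene of endothelium, Fabp4 (0.95), Mical1 (0.94), Odc1 (0.93) and Oxtr (0.93). They are the highest of all tested genes by choice and share libraries with the markers, so they are a description only. Of these 10 genes Mical1, an enzyme that oxidizes actin, was the one called (log2 fold change 0.47, limma adjusted p = 0.0068). The markers themselves did not all move together. Between pairs of pericyte markers r ran from -0.42 (Mcam and Vtn) to 0.80 (Cspg4 and Pdgfrb). Between pairs of smooth muscle markers it ran from -0.21 (Myh11 and Cnn1) to 0.82 (Tagln and Cnn1). Between a pericyte and a smooth muscle marker it ran from -0.60 (Rgs5 and Tagln) to 0.84 (Mcam and Cnn1). Mcam was also at 0.74 with Tagln and 0.72 with Myl9, but at 0.09 with Acta2 and -0.25 with Myh11. Neither mean therefore stands for a level shared by all 5 markers.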

How the data were processed

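Right atrial RNA of 6 control and 6 iNICD samples was measured. The authors deposited CPM values per gene. Per the submitters' processing notes, the tools were STAR 2.4.0b and featureCounts. The genome build, gene annotation, strand setting and handling of multiply aligned reads: not given in the sources used here. The table held 41264 rows and 40690 identifiers, and the 574 repeated rows, equal in value, were dropped. No other per-sample column was present. All values in each library (100%) were whole multiples of the smallest one within 0.001 reads, so whole reads were recovered, and depth is 12015650 to 22716190 reads a library.

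A gene was tested (14336 genes) if 6 or more of the 12 libraries reached 1 CPM. The main test was limma 3.58.1 (R 4.3.3) on log2(CPM + 0.5) with its trend and robust options and no replicate block, adjusted by Benjamini-Hochberg. The pseudocount understates fold changes of low genes. For single genes, all 924 relabellings gave an exact two-sided permutation p. Alternatives were pseudocounts of 0.1 and 2, other filters (none, mean of 5 CPM), 2 scalings, limma without robust estimation, a replicate block, an Xist covariate, each library left out, and edgeR 4.0.16 and DESeq2 1.42.0 on recovered reads. Leaving out the 3 libraries rich in Gm42418 was added after seeing the data. On simulated reads with 14400 genes tested, limma recovered 98% of genes changed 2-fold and 64% of those changed 1.5-fold, and 6.22% of calls were false. Each simulated gene had the spread typical of its level. These shares therefore do not carry over to markers with a wide spread, such as Cnn1 and Acta2.

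The members and lists were chosen with earlier results of these data known. The genes named are the 10 markers, 8 key genes (Notch1, Notch3, Heyl, Myocd, Srf, Pdgfb, Kcnj8, Abcc9), up to 6 called genes of each mural list by smallest adjusted p, paralogs, up to 3 called genes of each marker list, and the 5 genes most like each marker group. Neighbours of Cspg4, Hbegf, Gucy1a3, Sox10 and overlapping genes were named after their values were seen. Positions and exon lengths came from GENCODE M21 (GRCm38), promoters from RefSeq (GRCm38.p6).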

Additional observations from a re-analysis of the deposited data

Results flagged for a closer look

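In 3 of the 20 groups of 6 libraries examined for the 10 markers, 1 library lay far from the rest, with a gap to its nearest neighbour above 0.625 of the group's range. By chance about 1 in 20 groups would be picked out. Cspg4 was at 105 CPM in control 4 against 51.7 to 71.0 CPM in the other controls, and without control 4 its log2 fold change was 1.99 (SE 0.12, limma adjusted p = 9.2e-08). Mcam was at 295 CPM in control 4 against 109.8 to 173 CPM in the other controls. Mcam was also at 192 CPM in iNICD 3 against 128 to 149.8 CPM in the other iNICD libraries. What set these libraries apart was not tested.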

How the results depend on the processing

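Cspg4 was called higher in all 24 alternatives, with a log2 fold change of 1.78 to 2.03 and a largest adjusted p of 0.00011 (limma, Benjamini-Hochberg), and no other marker was called in any of them. The Mcam log2 fold change turned to 0.064 without control 4 and ranged from -0.22 to 0.064 with 1 library left out. The Tagln log2 fold change turned to -0.011 without the 3 libraries rich in Gm42418. The Vtn log2 fold change turned positive in that setting (0.11), with the Xist covariate (0.00482) and without control 2, control 3, iNICD 1 or iNICD 5, and ranged from -0.15 to 0.074 with 1 library left out. Over all genes, 342 were higher and 134 lower without the 3 Gm42418-rich libraries, 407 were lower under quantile normalization and 587 by DESeq2. With 1 library left out, 430 (without iNICD 1) to 779 genes were higher and 183 to 429 (without control 4) lower.

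Among further smooth muscle genes, 2 were lower in place of 1 under median-of-ratios scaling, quantile normalization, the replicate block, the Xist covariate, edgeR and DESeq2, and 1 to 2 with a library left out. Of the mural signals 1 was lower by DESeq2. Of the regulators, 0 were higher without a filter, 2 with the replicate block or DESeq2, 3 with the Xist covariate and 0 to 2 with a library left out, and 2 were lower under median-of-ratios scaling, edgeR or DESeq2 and 1 to 2 with a library left out. The cause was not tested. Samples of the same number correlated at -0.01 to 0.32, not over 0.1 in every pair, and 3 of 6 controls correlated best with their own number, so the numbers were not taken as a pairing. With the replicate block the Cspg4 log2 fold change was 1.86 (limma adjusted p = 9.85e-06), no other marker was called, and 794 genes were higher and 297 lower. Depth limits Vtn, which rests on 38 to 96 reads a library.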
